A study of Mus musculus with 43 samples.

Results

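Mouse autosomes carry their centromere at one end, and the reference assembly replaces that end with a gap of 3 Mb before the first sequenced base. The peaks described here are those of chromosomes 1 to 19 whose midpoint lies past that gap and up to position 8000000 of mm10, so within the 5 Mb of sequence next to the centromeric gap. This interval is called the window, and the rest of the same 19 chromosomes serves as the comparison. The rule used position alone and no measured value. It took 2875 peaks out of 48260 in 12 lists, while 40992 lay in the rest of the same chromosomes.

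The lists came from chromatin immunoprecipitation sequencing (ChIP-seq) of mouse embryonic fibroblasts (MEFs) taken from E13.5 embryos, with 129/C57 dams and CAST sires given as the parents in the labels. Each of H3K9me2, H3K9me3, H3K27me3 and Setdb1 was profiled in 3 kinds of cells. Female cells were Setdb1+/+ Xist∆A/+ with a non-silencing hairpin (n = 3 libraries for each target), Setdb1-depleted cells (depleted cells) were female Setdb1+/gt Xist∆A/+ with a hairpin against Setdb1 (n = 2), and male cells were Setdb1+/+ X/Y with the non-silencing hairpin (n = 3). The gt allele is a gene trap, the ∆A allele lacks the silencing repeat of Xist, and all cells had been transduced with a retrovirus and selected in puromycin. The authors pooled the libraries of a group before they called peaks, so 1 list stands for each target and kind of cells and no difference could be set against a replicate spread. All intervals below are 95% intervals for counting error only, and neighbouring peaks of 1 list are not independent. For the Setdb1 list of the depleted cells the hairpin is uncertain, since its header gives the non-silencing one and the labels give the one against Setdb1.

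Pericentromeric chromatin is the textbook example of constitutive heterochromatin. In mouse it consists of long arrays of the major satellite, which carry H3K9me3 laid down by the Suv39h enzymes and bound by HP1 proteins, and it is largely free of genes. Setdb1 is another H3K9 methyltransferase, best known for silencing endogenous retroviruses together with KRAB zinc finger proteins, while H3K27me3 is written by the Polycomb complex PRC2 over the promoters of silent developmental genes. The satellite arrays themselves are mostly missing from the assembly, and what was measured here is the sequence beside them.

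That sequence was more repetitive than the rest. Soft-masked repeats made up 39.8% of the window and 33.2% of the rest, and 11.3% against 5.70% of 100-base stretches had more than 1 exact copy in the assembly. Protein-coding genes were about as dense (9.61 and 8.65 per Mb), and pseudogenes were denser (6.40 and 4.78 per Mb). Chromosome 14 stood apart, with 75.6% of its window in multi-copy sequence, followed by chromosome 7 (23.5%) and chromosome 17 (12.8%), while the other 16 chromosomes lay between 3.40% and 9.31%.

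Sequences that carried a large share of the peaks are shown first. The window of chromosome 9 opened with a tandem array, in which bases 234 positions apart were identical in 69.4% of cases over its 40 kb, and 234 bp is the length of the mouse major satellite unit. It was the only stretch in the 19 windows with 5 kb bins above 50% identity at that distance. The units below come from chr9:3025001-3025468, plus strand, of the RefSeq assembly GRCm38.p6, and capitals in the second mark the 16 bases that differ from the first, an identity of 93.2%.
Repeat unit 1: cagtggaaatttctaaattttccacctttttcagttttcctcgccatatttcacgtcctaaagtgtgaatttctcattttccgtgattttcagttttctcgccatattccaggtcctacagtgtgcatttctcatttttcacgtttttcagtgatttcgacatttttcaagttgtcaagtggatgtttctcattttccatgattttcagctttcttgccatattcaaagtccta
Repeat unit 2: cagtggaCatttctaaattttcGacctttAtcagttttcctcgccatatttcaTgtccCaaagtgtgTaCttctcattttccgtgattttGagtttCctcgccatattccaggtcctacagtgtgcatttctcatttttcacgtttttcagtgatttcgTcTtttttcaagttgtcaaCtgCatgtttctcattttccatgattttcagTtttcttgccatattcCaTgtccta

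The strongest Setdb1 peak of the window in every list lay on chromosome 17 at a simple repeat, of which chr17:4626215-4626315 around the female summit is printed with each ATTCC in capitals. The pentamer occurred 66 times in the 443 bp of the female peak and made up 74.5% of its bases, and it did not occur there on the other strand. Its tandem form ATTCCATTCC, searched on both strands, was present in 0.160% of all 400-base tiles of the windows and in 1 of the 67 female window peaks.
Chromosome 17: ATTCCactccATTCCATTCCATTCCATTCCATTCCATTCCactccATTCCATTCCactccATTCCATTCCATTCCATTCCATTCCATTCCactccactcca

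A second sequence underlay a cluster of female and male Setdb1 peaks on chromosome 10. At chr10:3109944-3110044 capitals mark GTCTGCACACACATA, which occurred 20 times in the 515 bp of the highest female peak. Searched on both strands, this string was found in 11 female and 11 male window peaks, all on chromosome 10, in 0 depleted peaks and in 20 of 235552 window tiles of 400 bases.
Chromosome 10: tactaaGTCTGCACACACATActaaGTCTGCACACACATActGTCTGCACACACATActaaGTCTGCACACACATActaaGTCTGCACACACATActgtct

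The third example is a piece of the repeated region of chromosome 14, chr14:6448301-6448400, from inside the widest female H3K9me3 peak of that window. It had 35 exact copies, and all 35 lay in the window of chromosome 14. Of the multi-copy 100-base stretches sampled in that window, 69.8% had every copy inside it.
Chromosome 14: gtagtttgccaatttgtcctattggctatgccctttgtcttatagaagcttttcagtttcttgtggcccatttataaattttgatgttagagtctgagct

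H3K9 methylation was concentrated next to the centromeric gap in all 3 kinds of cells. H3K9me3 had 431 window peaks in female cells, a density of 4.57 per Mb (4.15 to 5.03) beside 2.34 per Mb in the rest (2.28 to 2.40), which is 1.95 times as dense (1.77 to 2.16). Depleted cells had 273 window peaks at 2.90 per Mb beside 1.39 in the rest, a ratio of 2.09 (1.84 to 2.36), and male cells had 399 at 4.23 beside 2.09, a ratio of 2.02 (1.82 to 2.24). The density was higher in the window than in the rest of the same chromosome on 15 of 19 chromosomes in female, 13 in depleted and 17 in male cells. The share of bases covered was 8.49% in the window and 4.18% in the rest in female cells, 5.57% and 2.71% in depleted cells, and 9.84% and 3.73% in male cells.

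H3K9me2 was rarer and more skewed. The 164 female window peaks gave 1.74 per Mb against 0.641 in the rest, a ratio of 2.72 (2.30 to 3.19), with 101 peaks and a ratio of 2.25 (1.81 to 2.76) in depleted cells and 184 peaks and a ratio of 3.02 (2.57 to 3.52) in male cells. It was higher in the window on 17, 17 and 16 of the 19 chromosomes. A large part of it was chromosome 14, which held 39.0% of the female, 23.8% of the depleted and 45.1% of the male window peaks. Without that chromosome the ratios were 1.81 (1.47 to 2.22), 1.86 (1.46 to 2.35) and 1.8 (1.45 to 2.20), and those of H3K9me3 were 1.64 (1.47 to 1.83), 1.69 (1.46 to 1.94) and 1.70 (1.51 to 1.91). All 6 intervals stayed above 1.

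H3K27me3 behaved differently from the H3K9 marks. Its 328 female window peaks gave 3.48 per Mb against 3.03 in the rest, a ratio of 1.15 (1.03 to 1.29), but they covered a smaller share of the window than of the rest, 9.83% against 10.8%. In depleted cells there were 227 peaks and the ratio was 0.919 (0.802 to 1.05), with 6.55% and 8.37% covered. Male cells had 346 peaks and a ratio of 1.32 (1.18 to 1.47), of which 88 peaks were on chromosome 14, and without it the ratio was 1.04 (0.911 to 1.17). The chromosomes were divided, with a higher density in the window on 10, 9 and 11 of 19.

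Setdb1 itself had 67 window peaks in female, 36 in depleted and 319 in male cells, which was 0.711, 0.382 and 3.39 per Mb. The ratio to the rest was 1.58 (1.21 to 2.02), 2.92 (2.01 to 4.14) and 2.79 (2.48 to 3.13). The window was denser on 10, 14 and 11 of the 19 chromosomes, and the median ratio over chromosomes was 1.02, 1.65 and 1.25.

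**Figure D1:**
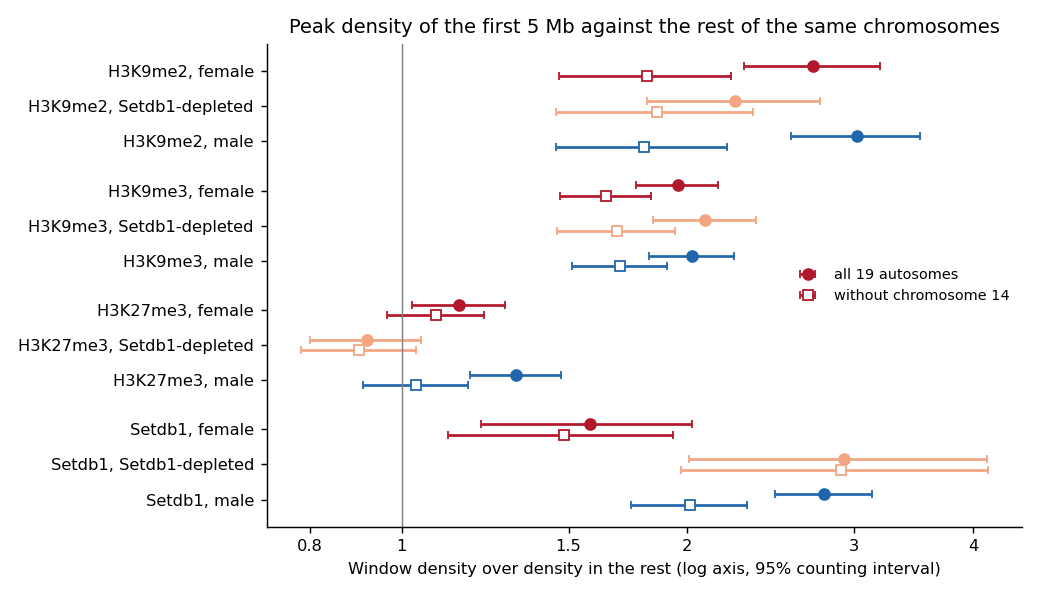
Ratio of peak density in the window (the 5 Mb next to the centromeric gap) to that in the rest of the same chromosomes, for 4 targets and 3 kinds of cells, on a log axis. Filled circles are all 19 autosomes, open squares leave out chromosome 14, and bars are 95% counting intervals. H3K9me2 and H3K9me3 stay above 1 with and without chromosome 14, whereas H3K27me3 without it lies between 0.903 and 1.09 with intervals that include 1.

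Outside chromosome 14 the megabase next to the gap was the most covered of the 5 by both H3K9 marks in all 3 kinds of cells. H3K9me2 covered 3.72% of it in female, 4.26% in depleted and 4.89% in male cells, and 0.667%, 0.750% and 0.667% of the following megabase. Farther out there were megabases with similar cover, and between 12 and 13 Mb from the gap H3K9me2 reached 4.30% in female, 4.18% in depleted and 5.18% in male cells. H3K9me3 reached 10.7%, 6.82% and 8.39% there. Outside chromosome 14, H3K9me3 covered 11.6% of the first megabase in female cells, 3.75% of the following megabase and 8.56% of the fifth, beside 4.17% of the rest of those chromosomes. The depleted list gave 10.1%, 1.42% and 5.40%, and the male list gave 10.9%, 3.75% and 6.63%. A megabase counted from the first sequenced base was also compared with the rest of its own chromosome. Its H3K9me3 cover was higher on 17 chromosomes in female, 17 in depleted and 16 in male cells. Its H3K9me2 cover was higher on 13, 15 and 15, with medians over the 19 chromosomes of 2.5%, 3% and 3%. That megabase holds the peaks of chromosomes 9 and 11 with high H3 that are described below. An H3K9me3 peak reached into the first 25 kb of sequence on 12, 13 and 10 chromosomes, beside 4, 5 and 6 for H3K9me2 and 4, 3 and 3 for H3K27me3.

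**Figure D2:**
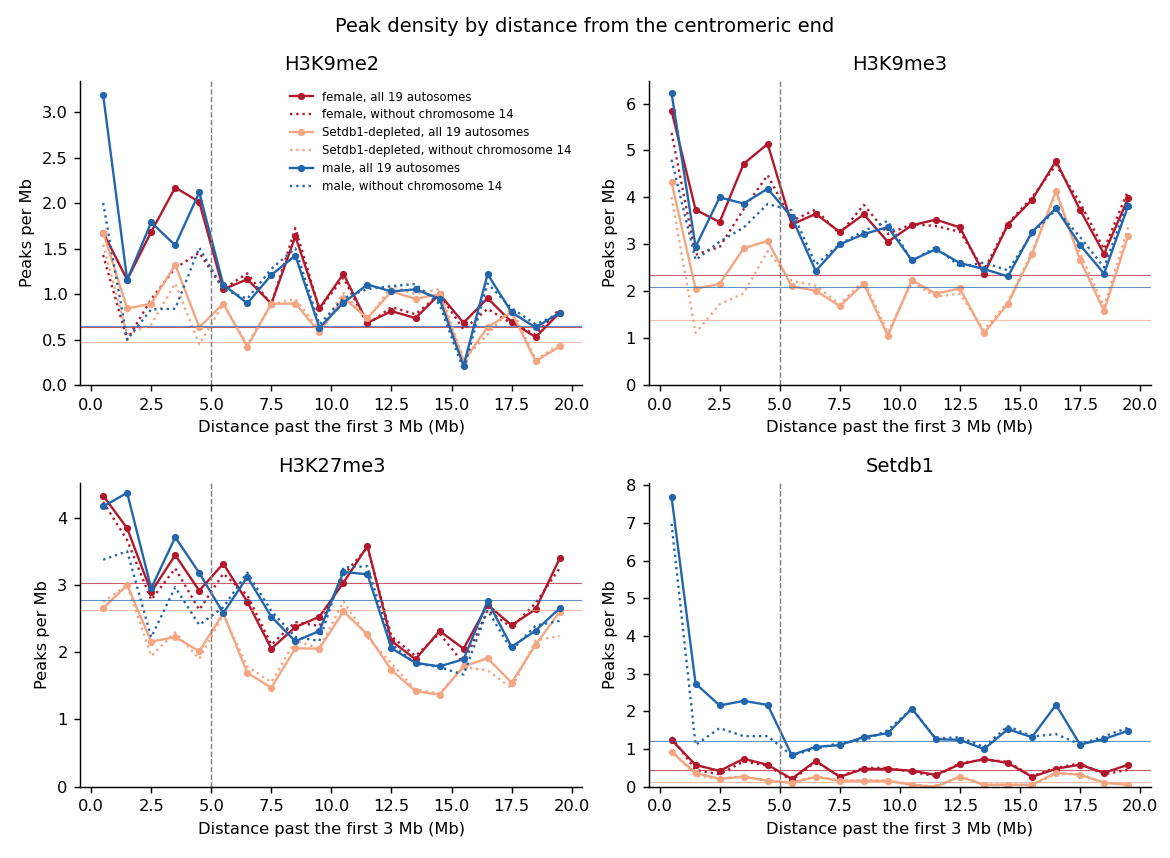
Peaks per Mb in steps of 1 Mb from the end of the 3 Mb gap (distance in Mb), for each target. Points joined by solid lines are all 19 autosomes, dotted lines leave out chromosome 14, thin horizontal lines are the density in the rest, and the dashed line marks 5 Mb. The step next to the gap was the densest of the first 5 in each kind of cells for H3K9me3, and male Setdb1 reached 7.68 per Mb there.

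The window was also compared with the other tiles of 5 Mb. The median H3K9me3 cover of the 19 windows was 5.60% in female, 3.54% in depleted and 6.20% in male cells, beside medians of 2.70%, 1.10% and 2.40% over the other tiles of 5 Mb. The window ranked highest in H3K9me3 cover on 3, 2 and 3 chromosomes, so on most chromosomes a tile elsewhere was covered more. For H3K27me3 the order was the opposite, with window medians of 6.78%, 3.90% and 7.60% beside 9.26%, 6.40% and 8.0%.

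Peaks were not generally wider near the centromere. The median width was 15 kb in the window and 15 kb in the rest for H3K9me2 and H3K9me3 in every kind of cells. It was 20 kb in the window and 25 kb in the rest for H3K27me3, also in every kind of cells. For H3K9 methylation the 90th percentile was higher in the window, but the widest peaks lay in the rest. The widest H3K9me3 peak was 245, 145 and 240 kb in the window and 965, 960 and 960 kb in the rest. The 90th percentile of the H3K9me2 window peaks was 35, 45 and 55 kb in female, depleted and male cells against 25 kb in the rest. That of H3K9me3 was 30, 34 and 40 kb against 25, 30 and 25 kb. These percentiles were not computed without chromosome 14. Setdb1 peaks had window medians of 112, 105 and 121 bp and medians of 101, 97 and 98 bp in the rest.

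By chromosome, H3K9me3 in female cells covered most of the window of chromosome 14 (33.7%), chromosome 7 (22.4%) and chromosome 9 (10.1%), and least of chromosome 15 (3.74%), chromosome 6 (3.84%) and chromosome 19 (3.90%). H3K27me3 had another order, with chromosome 17 (22.5%), chromosome 19 (19.9%) and chromosome 11 (19.7%) at the top and chromosome 3 (1.00%), chromosome 9 (2.50%) and chromosome 13 (5.00%) at the bottom. Chromosome 19, near the bottom for H3K9me3 and near the top for H3K27me3, had the most protein-coding genes in its window, 185, and chromosome 3, lowest for H3K27me3, had the fewest, 8. Other chromosomes did not follow this order. Chromosomes 14 and 7, highest for H3K9me3, had 103 and 128 such genes, and chromosome 17, highest for H3K27me3, had 34.

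**Figure D3:**
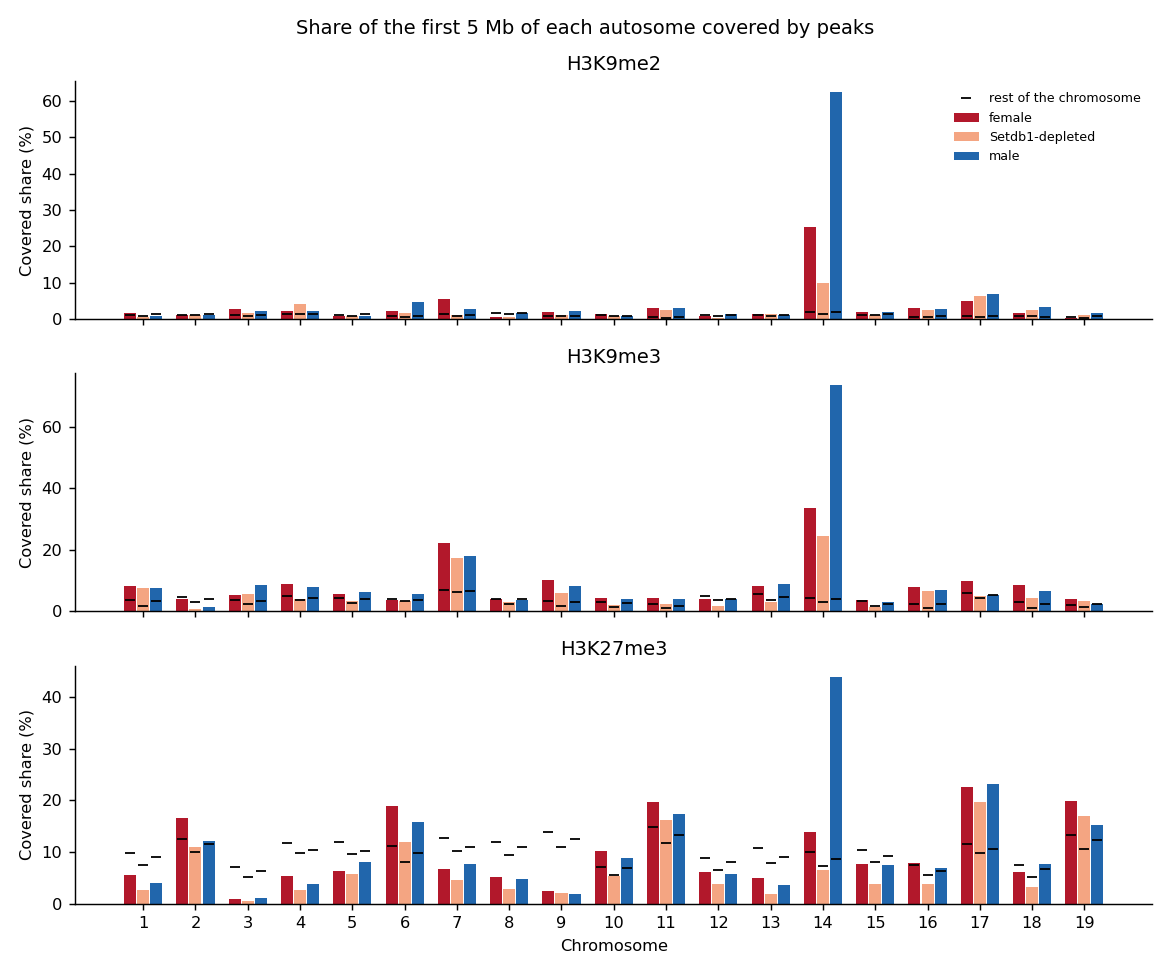
Share of the window of each autosome covered by peaks, in percent, for 3 histone marks (panels with separate scales) and 3 kinds of cells (bars). Black dashes give the share of the rest of the same chromosome. The male bars of chromosome 14 reach 62.4% for H3K9me2, 73.6% for H3K9me3 and 43.8% for H3K27me3.

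Chromosome 14 was the extreme case, and the cells differed there. Its window held 103 protein-coding genes, of which 98 had predicted gene names that start with Gm, and 69 pseudogenes. H3K9me3 covered 1685 kb of it in female, 1220 kb in depleted and 3680 kb in male cells, H3K9me2 covered 1260, 500 and 3120 kb, and H3K27me3 covered 690, 325 and 2190 kb. The numbers of H3K9me3 peaks were close (87, 66 and 83), so in male cells the peaks were wider, up to 240 kb against 100 kb and 80 kb. Among the 472 tiles of 5 Mb along the autosomes, the window of chromosome 14 ranked 1 for all 3 histone marks in male cells, and 1, 3 and 144 for H3K9me2, H3K9me3 and H3K27me3 in female cells.

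Overlap between marks is read here beside the share of the window that H3K9me3 covered, which on chromosome 14 was 73.6% in male and 33.7% in female cells. In male cells 92.6% of the H3K9me2 bases and 85.8% of the H3K27me3 bases there were also in an H3K9me3 peak, and in female cells the shares were 75.4% and 55.8%. In the windows of the other 18 chromosomes, of which H3K9me3 covered 6.27% in male and 7.08% in female cells, its peaks held 14.2% of the male and 15.9% of the female H3K27me3 bases, and in the rest of the autosomes 6.74% and 6.40%. Over the whole window without chromosome 14, H3K9me2 shared 61.2% of its bases with H3K9me3 in female, 51.3% in depleted and 47.6% in male cells, beside 51.8%, 41.5% and 47.7% in the rest. The paper reports that its H3K9me3 antibody cross-reacts subtly with H3K27me3 in peptide competition. Its authors thought an effect on their results unlikely, since the patterns of these marks differed. What this cross-reactivity contributes to overlaps of H3K27me3 with H3K9me3, here and in the domains described below, was not tested.

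H3, the control of the histone calls, was low on chromosome 14, and which H3 pool was the control of each list is not given in the sources used here. Female H3K9me3 peaks had a median of 4.67 scaled H3 reads per kb in that window, 14.03 in the other windows and 13.8 in the rest, in each case in the female H3 pool. Male H3 exceeded female H3 in these chromosome 14 peaks by a median of 1.301 times, beside 1.03 times in the other windows. Histone peaks mostly made of multi-copy sequence were 31.3% of the female H3K9me3 window peaks and 16.2% of those in the rest, and 16.0% of the window peaks without chromosome 14. For female H3K9me2 the shares were 49.4%, 13.7% and 22.0%. Cover also differed with copy number. Of the 5 kb bins of the chromosome 14 window that were at least 50% multi-copy, 79.5% were covered by male, 34.6% by female and 24.7% by depleted H3K9me3 peaks, and of its 56 bins under 10% multi-copy, 3.57%, 7.14% and 5.36% were. The part that the low H3 or the repeated sequence plays in the difference between cells was not tested.

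**Figure D4:**
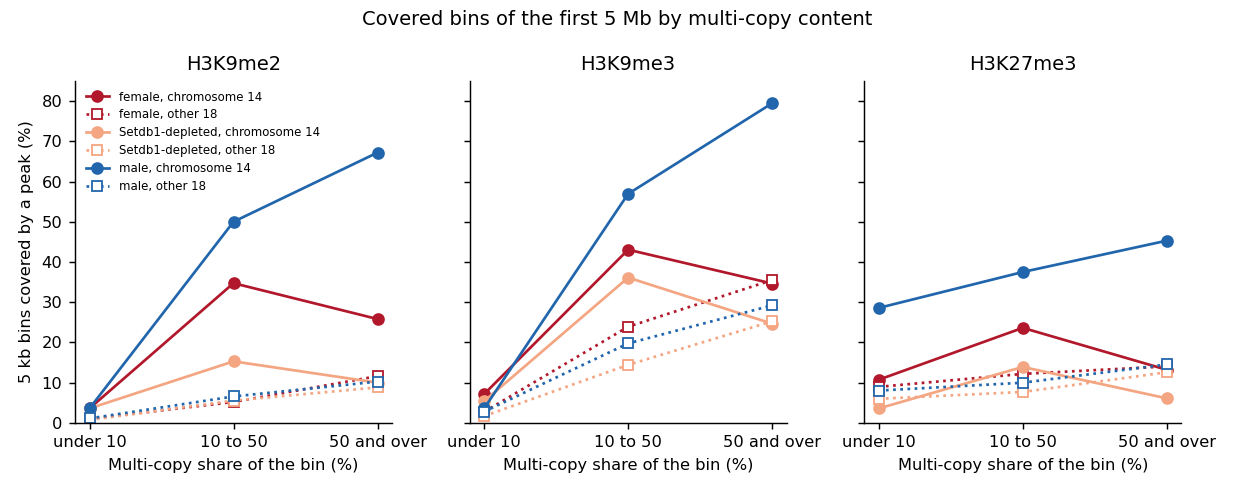
Share of 5 kb bins of the window of which at least 50% was covered by a peak, in percent, against the multi-copy share of the bin (under 10, 10 to 50, and 50 or more percent). Filled circles are chromosome 14, open squares the other 18 autosomes, and colours the kinds of cells. H3K9me3 cover rose with copy number on the other 18 autosomes as well, from 2.74% to 35.5% in female cells, and the male share of the most repeated bins was 79.5% on chromosome 14 and 29.2% on the others.

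The widest H3K27me3 window peak of each list was the same domain on chromosome 17. This domain, chr17:6350001-6730000, 380 kb wide and 59.7% multi-copy, had the same borders in the 3 lists and ran from Dynlt1b, a dynein light chain, to Sytl3, a Rab effector of the synaptotagmin-like family. Female H3K9me3 peaks of 210 and 125 kb lay inside it, of which 54.8% and 32% was covered in depleted cells and 0% and 96% in male cells. H3 there was not low, at 20.05 scaled reads per kb. A wide H3K27me3 peak in sequence that was 2.35% multi-copy lay in Frmd4a, a FERM domain scaffold protein, at chr2:4085001-4200000 in female cells. Its 115 kb lay wholly in the male peak of 190 kb, and 73.9% of it was covered in depleted cells.

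Another wide domain sat at the edge of the chromosome 11 sequence, over Sfi1, a centrosomal protein, with Drg1 and Eif4enif1. It was among the widest for H3K9me2 (chr11:3095001-3210000 in female cells, 115 kb) and for H3K27me3 (110 kb in female and in depleted cells, all of which was found in the male list). H3 there was high, 218 scaled reads per kb in the female pool against a median of 12.6 over all female H3K9me2 window peaks. The satellite array of chromosome 9 had high H3 as well. All 9 histone lists had a peak over it that began at 2995001, inside the gap, and was 50 kb wide for H3K9me2 and H3K27me3 and 80 to 85 kb wide for H3K9me3, and the female H3 density in the 50 kb peak was 130 scaled reads per kb. At these places peaks of marks with different roles had nearly the same borders, and what the high H3 contributes was not tested.

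The Vmn2r genes of the window all lay on chromosome 7. Vmn2r genes code for pheromone receptors of the vomeronasal organ, and 8 of the 9 in the window lay under an H3K9me3 peak in female cells, 8 in depleted cells and 6 in male cells. Of the 112 Vmn2r genes in the rest, 43.8%, 52.7% and 35.7% did. The widest female H3K9me3 peak of all windows, chr7:7300001-7545000 (245 kb, 53.6% multi-copy), ran from Clcn4, a chloride-proton exchanger, over Vmn2r30 and Vmn2r31 to Vmn2r32, and 79.6% of it was covered in depleted and 53.1% in male cells. The widest H3K9me2 window peak of the depleted list, 105 kb over Vmn1r2 and Vmn1r3 on chromosome 4, had no overlap in the other 2 kinds of cells. Vmn2r34 lay under H3K9me3 peaks of 115, 145 and 120 kb in the 3 kinds of cells. Of the 14 Vmn1r genes, the other vomeronasal family, 8, 8 and 6 lay under an H3K9me3 peak, 57.1% in female cells beside 19.1% of the 194 in the rest.

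Other gene groups were counted in the same way. In the window, 2 of the 10 Olfr genes (olfactory receptors) and 3 of the 23 Zfp genes (zinc finger proteins, many of them repressors) had a female H3K9me3 peak, beside 192 of 1118 and 82 of 362 in the rest. All protein-coding genes of the window reached 15.2%, or 85 of 803 without chromosome 14, and those of the rest 7.39%. Pseudogenes had 17.9%, or 82 of 534 without chromosome 14, and 10.6%. Among the protein-coding genes under a peak, the predicted Gm genes of chromosome 14 made up a large part. Of these 98 genes, 51 lay under a female, 38 under a depleted and 86 under a male H3K9me3 peak. In the rest, 19.2%, 15.8% and 18.2% of the 1091 protein-coding Gm genes did.

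Developmental transcription factors were few in the window. Of 4 genes of the Pax, Lhx, Irx, Nkx, Dlx, Tbx, Gata, Sox, Fox, Hox and sine oculis homeobox families, Sox17, an endoderm and endothelial factor, and the neighbours Dlx5 and Dlx6, which pattern the jaw and limb, lay under H3K27me3 in all 3 kinds of cells. The peaks were 40, 40 and 45 kb wide at Sox17 and 70, 70 and 75 kb wide at Dlx5 and Dlx6 in female, depleted and male cells, and the fourth, Tbx10, had no peak of any target. None of the 4 lay under an H3K9me2 or H3K9me3 peak. In the rest, 81.9% of the 160 genes of these families were under a female H3K27me3 peak.

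Fewer window peaks were listed in depleted than in female cells for every target. H3K9me3 went from 431 to 273, a change of -36.7% beside -40.7% in the rest, and fewer peaks were listed on 17 of 19 chromosomes. H3K9me2 went from 164 to 101 (-38.4%, and -25.6% in the rest) and H3K27me3 from 328 to 227 (-30.8%, and -13.4% in the rest). Setdb1 went from 67 to 36 (-46.3%, and -71.0% in the rest). Window and rest were compared by the odds of a window peak in the depleted over the female list, 1.07 for H3K9me3 (0.909 to 1.25) and 0.827 for H3K9me2 (0.631 to 1.08). The odds for H3K27me3 were 0.799 (0.669 to 0.953), and Setdb1 had odds of 1.85 (1.17 to 2.88). With equal numbers of peaks taken from both lists the Setdb1 odds were 1.22. The interval included 1 for both H3K9 marks, so no difference between window and rest was detectable at these counts. For H3K27me3 it lay below 1, also without chromosome 14 (0.830, 0.690 to 0.998).

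The lists were also compared position by position. Of the 431 female H3K9me3 window peaks, 252 had no overlapping peak in the depleted list, 58.5% (53.7 to 63.2), beside 66.7% of all female autosomal H3K9me3 peaks. The odds of being found were 1.46 times those in the rest (1.19 to 1.79) and 1.24 times without chromosome 14 (0.980 to 1.56), so the interval then included 1. H3K9me2 had 113 of 164 without a partner, 68.9% (61.2 to 75.9), beside 73.2% of all, and odds of being found of 1.26 (0.869 to 1.81). H3K27me3 was the reverse of H3K9me3, with 175 of 328 not found, 53.4% (47.8 to 58.9), beside 41.2% of all, and odds of being found of 0.598 (0.476 to 0.752), or 0.611 without chromosome 14 (0.480 to 0.777). Of the 67 Setdb1 peaks 63 had no partner, 94.0% (85.4 to 98.3), beside 98.1% of all.

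Male cells served as a second comparison for the loss. No partner in the male list was seen for 164 of 431 H3K9me3 peaks, 38.1% beside 49.3% of all female autosomal peaks, for 71 of 164 H3K9me2 peaks, 43.3% beside 65.0%, for 127 of 328 H3K27me3 peaks, 38.7% beside 38.7%, and for 52 of 67 Setdb1 peaks, 77.6% beside 95.2%. For H3K9me2 the window peaks were found more often than those of the rest, with odds of 2.71 (1.93 to 3.81), but without chromosome 14 the odds were 1.22 (0.772 to 1.89). For H3K27me3 the odds were 0.998 (0.791 to 1.26), or 0.898 without chromosome 14 (0.705 to 1.15). The interval thus lay below 1 with the depleted list and included 1 with the male one. The comparisons share the female list, and the difference between them was not tested.

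**Figure D5:**
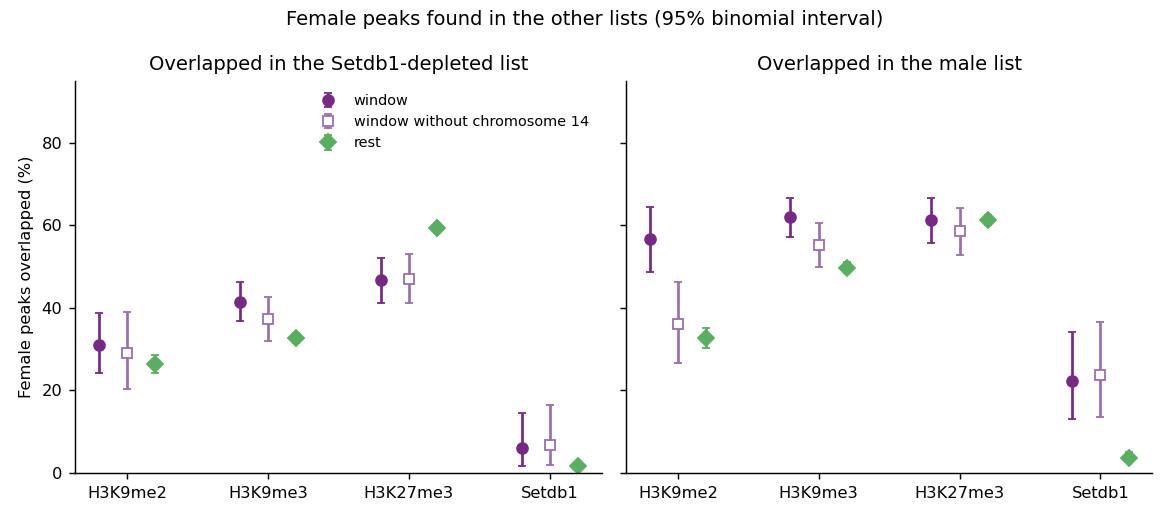
Percent of female peaks overlapped by at least 1 bp in the depleted list (left) or the male list (right), for each target, with 95% binomial intervals. Circles are the window, open squares the window without chromosome 14, and diamonds the rest. For H3K27me3 the depleted list held 46.6% of the window and 59.4% of the rest, while the male list held 61.3% of both. Without chromosome 14 the male list held 58.6% of the window and 61.2% of the rest.

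Female and male Setdb1 peaks lay in the windows of all 19 chromosomes and depleted ones in 14, with up to 13, 101 and 6 peaks in 1 window in female, male and depleted cells. For Setdb1, 57400561, 22386381 and 16482475 ChIP reads were pooled from female, depleted and male cells, and 18134299, 14405821 and 12320583 entered the calls, whereas the histone lists give no read totals, so their depth is unknown. Joined over the lists, the window peaks made 398 sites, of which 377 were in 1 list, 19 in 2 and 2 in all 3. Low sharing was not particular to the window. Of the female peaks, 74.6% in the window and 95.9% in the rest had no overlap in either other list. The site on chromosome 17 with the ATTCC repeat, 8376 bp from the noncoding gene 4930517M08Rik and in no gene, had a fold enrichment of 33.8 in female, 37.8 in depleted and 106 in male cells. The other site lay in an intron of Camk2b, a subunit of calcium/calmodulin-dependent kinase II, at chr11:6006248-6006606 in male cells, with folds of 8.0, 7.33 and 45.6. Both were strongest in the male list. The Camk2b site held neither the ATTCC nor the chromosome 10 repeat. The sampled sequence had 1 copy at its male summit and 2 copies at its depleted summit. Whether the site matches other repeats or the retrovirus used on the cells was not tested. The bases chr11:6006461-6006561 around the male summit, the capital, are printed beside the repeats.
Camk2b: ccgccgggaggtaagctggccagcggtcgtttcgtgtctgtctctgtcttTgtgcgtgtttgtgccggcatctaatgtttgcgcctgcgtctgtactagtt

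The cluster of chromosome 10 was seen in female and male cells only. Between 3109522 and 3117123 the female list had 11 Setdb1 peaks with a median fold of 11.1 (5.05 to 14.1), and the male list had 11 with a median of 8.51 (4.86 to 12.8). The depleted list had 0 there. A list holds only peaks past its threshold, so weaker binding cannot be told apart from none. These 11 female peaks were most of the 15 that overlapped a male peak. Without chromosome 10, 4 of 54 did, 7.41% (2.06 to 17.9), beside 3.49% of the rest. The nearest annotated gene to the highest peak was the pseudogene Gm30674, 5047 bp away.

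The satellite array held Setdb1 peaks of another character. In male cells 74 peaks lay in these 40 kb of chromosome 9 with a median fold of 1.77 and a median pileup of 188 reads, against a median fold of 3.65 over all male window peaks. Depleted cells had 5 there with a median fold of 1.70, and female cells had 0. Together chromosomes 9 and 14 held 184 of the 319 male peaks (83 and 101), and the odds of a window peak in the male over the female list went from 1.77 (1.34 to 2.36) to 0.849 when both were left out. This exclusion was chosen after seeing the data, and 0.849 is given without an interval. Without chromosome 14 alone the odds were 1.36 (1.003 to 1.86). Without chromosome 10, which held the most female window peaks, they were 2.03 (1.497 to 2.79). Of the male summits 45.8% were in multi-copy sequence in the window and 12.2% in the rest, of the female ones 35.8% and 19.4%, and of the depleted ones 33.3% and 23.6%.

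The overlap of Setdb1 peaks with H3K9 methylation is given for each kind of cells, and the differences between them were not tested. In male cells 184 of 319 window peaks (57.7%, 52.1 to 63.2) lay in an H3K9me2 or H3K9me3 peak, beside 376 of 2794 in the rest (12.2% to 14.8%). Without chromosomes 9 and 14 it was 17 of 135, 12.6% (7.51 to 19.4), an interval that included the share of the rest. In female cells 15 of 67 did (22.4%, 13.1 to 34.2, beside 140 of 1037 in the rest), and in depleted cells 18 of 36 (32.9% to 67.1%, beside 18.9% in the rest). Without those chromosomes it was 11 of 58 in female and 11 of 28 in depleted cells (39.3%, 21.5 to 59.4). In no histone peak of any mark were 70.1% of the female, 18 of 36 depleted and 40.1% of the male window peaks, beside 79.4%, 73.1% and 79.8% in the rest. Without chromosomes 9 and 14 the male share was 114 of 135, 84.4% (77.2 to 90.1), an interval that included the share of the rest. The female share was then 43 of 58 (74.1%) and the depleted share 17 of 28 (60.7%).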

How the data were processed

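The deposited files are 12 lists of peaks called by the authors on pooled libraries. Reads were aligned by the authors with Bowtie2 to mm10 with strain variants masked. Broad histone peaks came from the caller of Seqmonk (10 kb fragments, p under 1e-05, H3 as control), in steps of 5 kb. The deposited log2 values give the H3 reads of each pool in a peak, scaled by the authors to the deepest pool. For Setdb1, MACS2 2.1.0.20140616 was run by the authors at p under 0.001 against whole cell extract, with the larger library down-sampled. Per the file headers, each Setdb1 peak has a pileup (a coverage signal), a fold enrichment (a ratio), a −log10 p-value and, as a score, the −log10 of its q-value. The labels name both NSCs and MEFs, and MEFs were taken.

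Peaks were placed by midpoint, and lengths leave out unsequenced bases. Copy number came from exact matches, on both strands, of 100-mers sampled every 100 bases of GRCm38.p6, the same assembly as mm10. A Setdb1 peak was multi-copy where the stretch at its summit was, a histone peak where at least 50% of its stretches were. Genes came from GENCODE M21. Densities have exact Poisson intervals, ratios of densities and odds ratios conditional exact intervals, shares Clopper-Pearson intervals. No test was made, since each group is 1 pooled list. Intervals came from scipy 1.17.1, tables from pandas 2.3.3 and numpy 2.4.6, copy numbers from numba 0.67.0 and figures from matplotlib 3.10.9 under Python 3.11.15, and the interval functions were tested on simulated data.

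Named chromosomes were the 3 with most and the 3 with least window cover by H3K9me3 and by H3K27me3 in female cells, and named peaks the widest (histone marks) or those of highest −log10 p (Setdb1) of each list, with the protein-coding genes they overlap. Other loci (the array of chromosome 9, the cluster of chromosome 10) were chosen after their values were seen. The members and lists were chosen with earlier results of these data known.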

Additional observations from a re-analysis of the deposited data

How the results depend on the processing

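Of 227 alternatives tried for 48 results, 162 moved a value by less than its counting interval. No paired analysis was possible because each group is 1 pooled list with no replicate columns, and leaving out replicates was not possible for the same reason. The cause of the moves was not tested beyond what each alternative leaves out. For the density ratio of window to rest, a window of 2 Mb gave 2.102 for H3K9me2 female, 1.35, 1.08 and 1.53 for H3K27me3 female, depleted and male, and 4.82 and 4.18 for Setdb1 depleted and male. A window of 10 Mb gave 2.38 for H3K9me2 male, 1.74, 1.71 and 1.79 for H3K9me3 female, depleted and male, 0.999 (below 1) and 1.11 for H3K27me3 female and male, and 1.86 for Setdb1 male. Merging peaks up to 5 kb apart gave 2.38 for H3K9me2 male and 1.76 for Setdb1 male. Stricter peaks (20 kb wide, or −log10 p of 5) gave 3.15 and 6.36 for H3K9me2 depleted and male, 3.12 for H3K9me3 male, 0.949 (below 1), 0.756 and 1.14 for H3K27me3 female, depleted and male, and 3.83 for Setdb1 male. Covered bases gave 4.74 for H3K9me2 male, 2.64 for H3K9me3 male, 0.913 (below 1), 0.783 and 1.09 for H3K27me3, and 2.26 and 3.48 for Setdb1 female and male. Without the chromosome with most window peaks the ratio was 1.81 and 1.799 for H3K9me2 female and male, 1.64, 1.69 and 1.70 for H3K9me3, 1.04 for H3K27me3 male and 2.01 for Setdb1 male. With multi-copy sequence left out it was 1.70, 1.74 and 1.797 for H3K9me2, 1.71, 1.68 and 1.71 for H3K9me3, 1.05 for H3K27me3 male and 1.83 for Setdb1 male. With q under 0.05, chosen after seeing the data, it was 3.26 and 5.80 for Setdb1 female and male. Median Setdb1 widths became 104 bp (female rest) and 102 bp (male rest) with stricter peaks and 105 bp (male window) with merging. The odds of a window peak, depleted over female, became 1.22 for H3K9me2 in a window of 2 Mb. Male over female they became 1.52 (2 Mb), 2.03 (stricter) and 1.60 (covered bases) for H3K9me2, 1.46 (stricter) and 1.299 (covered bases) for H3K9me3, 0.953 (without chromosome 14) and 0.954 (multi-copy left out) for H3K27me3, and 1.32 (merged), 2.99 (equal numbers of peaks) and, chosen after seeing the data, 0.849 (without chromosomes 9 and 14, below 1) for Setdb1. The share of female window peaks found in the depleted list became 40.5% for H3K9me2, 46.4% for H3K9me3 and 53.3% for H3K27me3 with stricter peaks, and 24.1% and 33.4% for H3K9me2 and H3K9me3 with multi-copy peaks left out.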
